A study of Mus musculus with 13 samples.

Results

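Aminoacyl-tRNA synthetases were followed here as a family of 35 genes, 20 cytosolic and 15 mitochondrial, in mouse C2C12 myoblasts. The members are the rows of the deposited gene-level table whose gene name equals a listed symbol, and mitochondrial genes are those whose symbol ends in 2. All 35 listed symbols were found among 23236 rows, and all 35 passed the filter of a mean of at least 1 FPKM (fragments per kilobase of transcript, divided by the library's mapped fragments) that 11792 rows passed. C2C12 is an established myoblast line, grown here in DMEM with serum. The 2 libraries used are poly(A)-selected RNA-seq of cells at the myoblast stage, 1 labelled siNC and 1 labelled siLinc-Yy1; these names read as a control small interfering RNA and one against the long noncoding RNA Linc-Yy1, but the labels give no dose, time or transfection method. The other 11 samples of the series, 2 RNA-seq and 9 ChIP-seq, were not analysed here. Each group is 1 library, so differences could not be set against replicate error and describe these libraries.

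Each synthetase joins 1 amino acid to its matching tRNA, using ATP, and so supplies the charged tRNAs that ribosomes consume. Cells keep separate enzymes for the cytosol and for mitochondria, all encoded in the nucleus; Gars and Kars serve both places from 1 gene. When charging falls short, uncharged tRNA activates the kinase GCN2, translation of the transcription factor ATF4 increases, and ATF4 raises genes of amino acid supply, among them many cytosolic synthetases.

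The myoblast markers fixed for the check were present in both libraries, for example Myod1 at 62.5 (siNC) and 67.0 FPKM (siLinc-Yy1), and 13 of 14 markers of immune, endothelial, epithelial and fat cells were below a mean of 1 FPKM, with a summed level of 1.24 FPKM in siNC against 1.87 in siLinc-Yy1. The exception was the lysosomal gene Cd68, at 4.48 and 4.43 FPKM. Markers of differentiated muscle differed between the libraries: 3 of 6 were at least 1.5-fold higher at the authors' scaling, against 3.28% of all rows (Ckm, 14.5 and 24.9 FPKM, Tnnt3, 31.9 and 52.3 FPKM, and Tcap, 1.87 and 4.70 FPKM). Acta1 stood at 78.0 and 91.3 FPKM, while Myog (22.8 and 19.4 FPKM) and Myh3 (3.08 and 1.85 FPKM) were lower. The median change of these 6 was 0.46, and their part in the synthetase values was not tested. The lincYy1 row stood at 0.360 and 0.227 FPKM, too low to check the label, with a q-value of 0.878 in the authors' deposited table. From the steps of low FPKM values, and if the authors applied no other scaling, the siNC library held about 66.1 M fragments and the siLinc-Yy1 library 47.6 M. A level of 1 FPKM then stands for 66.1 and 47.6 fragments per kb of transcript. Intervals of ratios below are exact binomial 95% intervals for 1 kb of transcript; they cover counting error only, not differences between cultures.

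Each of the 20 cytosolic synthetase mRNAs was more abundant than each of the 15 listed mitochondrial ones. Values are given in the order siNC, siLinc-Yy1 throughout. In siNC the cytosolic genes spanned 31.2 to 132 FPKM with a median of 58.3 FPKM, and the mitochondrial genes 2.25 to 28.7 FPKM with a median of 7.49 FPKM. In siLinc-Yy1 the spans were 36.5 to 159 FPKM and 1.78 to 27.9 FPKM. The lists did not overlap in either library. Kars, the lysyl enzyme, was the most abundant in both, at 132 and 159 FPKM. Gars, the glycyl enzyme, followed at 97.7 and 137 FPKM, so the genes that serve both compartments led the family. The lowest cytosolic gene was Lars, the leucyl enzyme, at 31.2 and 36.5 FPKM. Among mitochondrial genes Iars2, the isoleucyl enzyme, was highest at 28.7 and 27.9 FPKM, close below Lars. Mars2 (methionyl) and Nars2 (asparaginyl) were lowest, at 2.41 and 1.78 FPKM and at 2.25 and 1.78 FPKM.

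**Figure D1:**
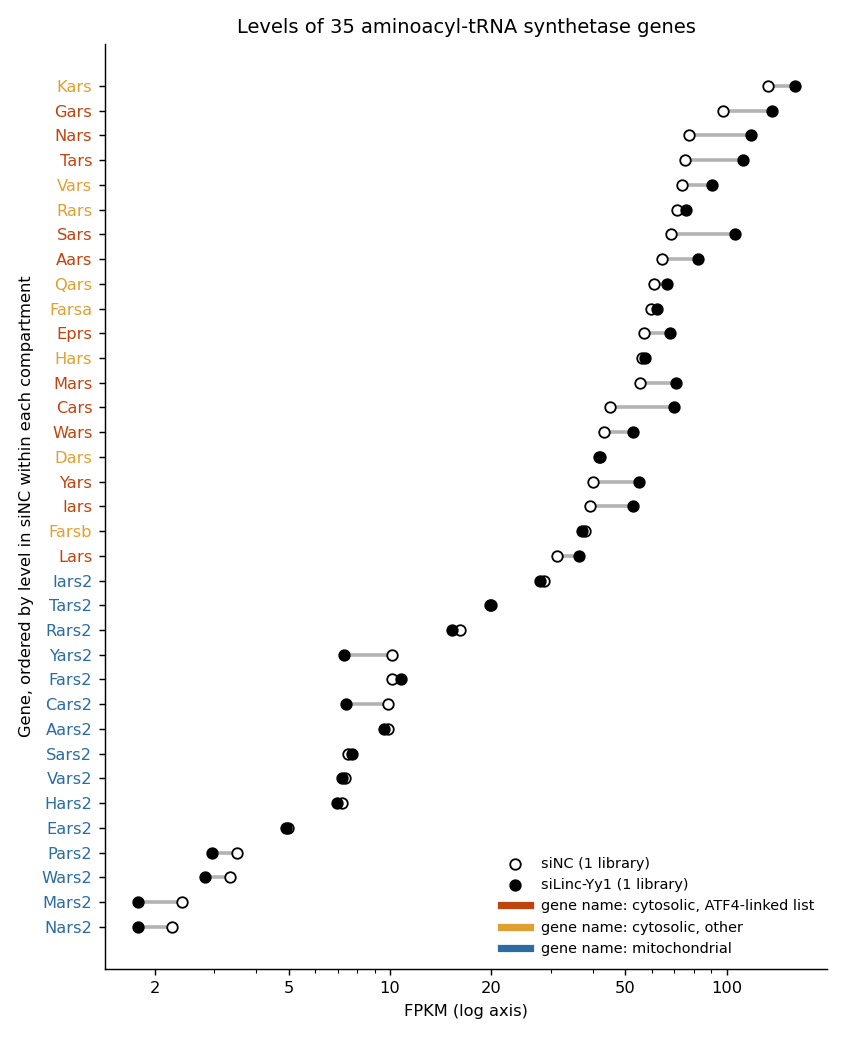
FPKM on a log axis for each synthetase gene in the siNC library (open) and the siLinc-Yy1 library (filled), 1 library each. Every plotted cytosolic gene lies above every plotted mitochondrial gene, and among cytosolic genes the gap between the libraries is wide for Nars, Sars, Tars and Cars.

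At the authors' scaling 18 of the 20 cytosolic genes were higher in siLinc-Yy1 and 2 were lower, whereas 3 of the 15 mitochondrial genes were higher and 12 lower; with the libraries rescaled to equal summed FPKM, 9 cytosolic and 0 mitochondrial genes were higher. Over all rows past the filter 45.4% were higher at the authors' scaling and 8.64% after rescaling. The change of a gene is the difference of log2(FPKM + 1) between the libraries, siLinc-Yy1 minus siNC, a scale that understates changes of low genes. Its median was 0.29 over the cytosolic genes, -0.041 over the mitochondrial genes and -0.021 over all rows. Rescaling shifts the median of all rows to -0.30 and that of the cytosolic genes to -0.030, so the direction of the cytosolic list holds only relative to other genes. The difference between the lists, cytosolic minus mitochondrial median, was 0.33 and remained 0.32 after rescaling. Within each library, free of any scaling between them, the summed cytosolic level was 8.58 times the summed mitochondrial level in siNC and 11.5 times in siLinc-Yy1. The sums were 1228 and 1551 FPKM for the cytosolic genes and 143 and 134 FPKM for the 15 listed mitochondrial genes. The Lars2 row, not a listed member and discussed below, stood at 143 and 597 FPKM. With that row in the sum, the ratio would be lower in siLinc-Yy1 than in siNC. The lists also differ in level, and the trend of change with level described below is part of these ratios.

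Sars, the seryl enzyme (mm9 chromosome 3, 108227782 to 108248177), measured 68.1 and 106 FPKM. The ratio of siLinc-Yy1 over siNC was 1.56, with a counting interval of 1.498 to 1.624, and was the highest of the family. Cars, the cysteinyl enzyme (chromosome 7, 150743135 to 150785995), measured 44.9 and 69.8 FPKM. Its ratio was 1.55, with an interval of 1.48 to 1.63. Nars, the asparaginyl enzyme (chromosome 18, 64659301 to 64676211), stood at 77.3 and 118 FPKM. Its ratio was 1.53 (1.47 to 1.59). These 3 genes were at least 1.5-fold higher on the log2 scale with 1 FPKM added, 3 of 20 cytosolic genes, against 3.28% of all rows and 2.99% of the 2271 rows in the same range of levels, 33.9 to 146 FPKM. After rescaling to equal sums, and after the level trend described below was subtracted, 0 of 20 passed this fold; the shares of all rows were then 1.76% and 2.14%. Tars, the threonyl enzyme, lay just below this fold, at 75.2 and 112 FPKM. At least 1.2-fold higher were 12 of 20 cytosolic genes, against 10.4% of all rows and 18.1% of rows in their range of levels, and 0 were 1.2-fold lower, against 7.81% of all rows and 1.1% in that range.

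Of the 35 genes 0 were called in the authors' deposited table, against 1.45% of the rows past the filter. The smallest q-value of the family in the authors' deposited table was that of Cars, 0.103, from an unadjusted p of 0.00239. Unadjusted p-values in the authors' deposited table were under 0.05 for 4 cytosolic genes, Cars, Tars (0.0153), Nars (0.0187) and Sars (0.0249). They were also under it for 2 mitochondrial genes, Yars2 (0.0209) and Cars2 (0.0409). The same threshold was met by 7.09% of the rows past the filter. Those p-values come from 1 library per group.

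**Figure D2:**
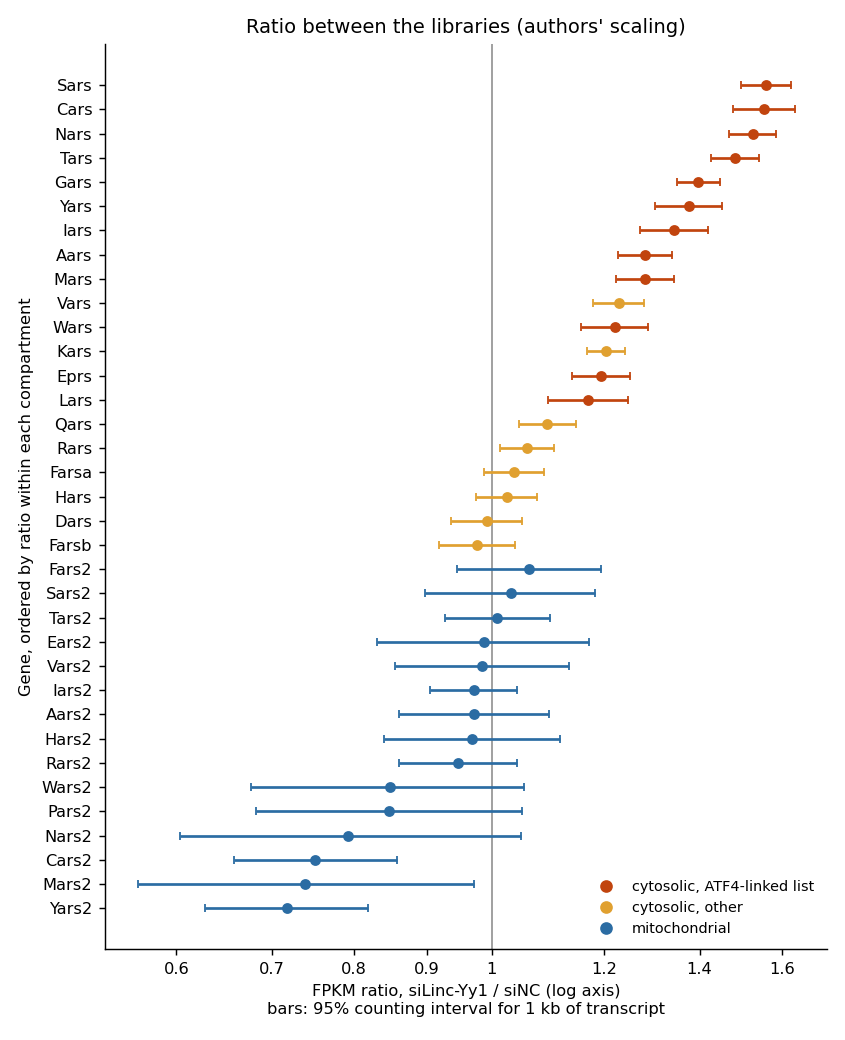
FPKM ratio of siLinc-Yy1 over siNC at the authors' scaling (log axis) for each gene, with the 95% counting interval for 1 kb of transcript as bars. Intervals lie above 1 for 16 cytosolic genes and below 1 for 3 mitochondrial genes. The share of all rows with an interval that excludes 1 was not computed. At this scaling 82.2% of rows in the cytosolic range of levels and 31.6% in the mitochondrial range had a change above 0. Rescaling to equal summed FPKM shifts all points left, which leaves 9 cytosolic genes above 1.

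The cytosolic genes fell along a range and did not share 1 change. At the lower end, Farsb, the beta subunit of the phenylalanyl enzyme, measured 38.0 and 37.1 FPKM, and its partner Farsa, the alpha subunit, 59.8 and 62.0 FPKM. Dars, the aspartyl enzyme, stood at 42.2 and 41.9 FPKM. Hars, the histidyl enzyme, stood at 55.9 and 57.3 FPKM. The counting intervals of these 4 genes included a ratio of 1. Rars, for arginine, measured 71.4 and 75.7 FPKM, and Qars, for glutamine, 61.0 and 66.7 FPKM; their ratios of 1.06 and 1.09 were small. The remaining cytosolic genes stood between these and Nars. Gars and Yars, the tyrosyl enzyme, had ratios of 1.397 and 1.376, with Yars at 40.0 and 55.1 FPKM. Iars, for isoleucine, measured 39.3 and 52.8 FPKM, a ratio of 1.34. Aars, for alanine, measured 64.2 and 82.4 FPKM, and Mars, for methionine, 55.2 and 70.7 FPKM, each with a ratio of 1.28. Vars, for valine, measured 73.5 and 90.4 FPKM (1.23), Wars, for tryptophan, 43.3 and 52.8 FPKM (1.22), and Kars had a ratio of 1.203. Eprs, a single protein that charges both glutamate and proline, measured 56.9 and 67.9 FPKM (1.19), and Lars had a ratio of 1.17.

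The cytosolic genes were also compared by their known link to ATF4. The lists were chosen with earlier results of these data known, and this comparison was added after the data were seen. From textbook knowledge of ATF4 targets, 12 cytosolic synthetases were listed as ATF4-linked: Aars, Cars, Eprs, Gars, Iars, Lars, Mars, Nars, Sars, Tars, Wars and Yars. All 12 were higher in siLinc-Yy1 at the authors' scaling, with changes from 0.22 to 0.63 and a median of 0.43; after rescaling to equal sums 9 of 12 were higher, all but Lars, Eprs and Wars. The other 8 had a median of 0.067 and ran from -0.034 to 0.29, with 6 above 0, and 0 of 8 after rescaling. Vars and Kars, the highest of the 8, overlapped the lowest of the 12. The difference of the medians was 0.37 at both scalings. The lists sat at similar levels, with medians of 56.0 FPKM for the 12 and 60.4 FPKM for the 8 in siNC. At least 1.2-fold higher were 10 of the 12 and 2 of the 8, against 10.4% of all rows and 18.1% of rows in the cytosolic range of levels. Above 0 were 45.4% of all rows and 82.2% of rows in that range at the authors' scaling, and 8.64% of all rows after rescaling. At the authors' scaling the counts for the other 8 were near the shares in their range of levels.

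Level mattered for the comparison of compartments. Rows in the cytosolic range of levels were higher relative to less abundant rows: at the authors' scaling the median change was 0.12 over the 2271 rows in the range of the cytosolic genes and -0.068 over the 7535 rows of 2.01 to 28.3 FPKM, the range of the mitochondrial genes. After rescaling to equal sums these medians were -0.19 and -0.35. At the authors' scaling, of the rows in the cytosolic range 82.2% were above 0, and of those in the mitochondrial range 31.6%. Since the compartments did not overlap in level, compartment and level cannot be told apart within the family alone. After subtraction of the running median of 300 rows ordered by mean level, the cytosolic median was 0.18, the mitochondrial median -0.014 and their difference 0.19. Within the cytosol the difference of medians was then 0.36: the 12 ATF4-linked genes were all above the running median, with a median of 0.28, and 7 of the other 8 lay below it, with a median of -0.077. Vars was the exception, at 0.11. Kars, at 0.26 before subtraction, lay at -0.037 after it, while Cars remained highest at 0.51.

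**Figure D3:**
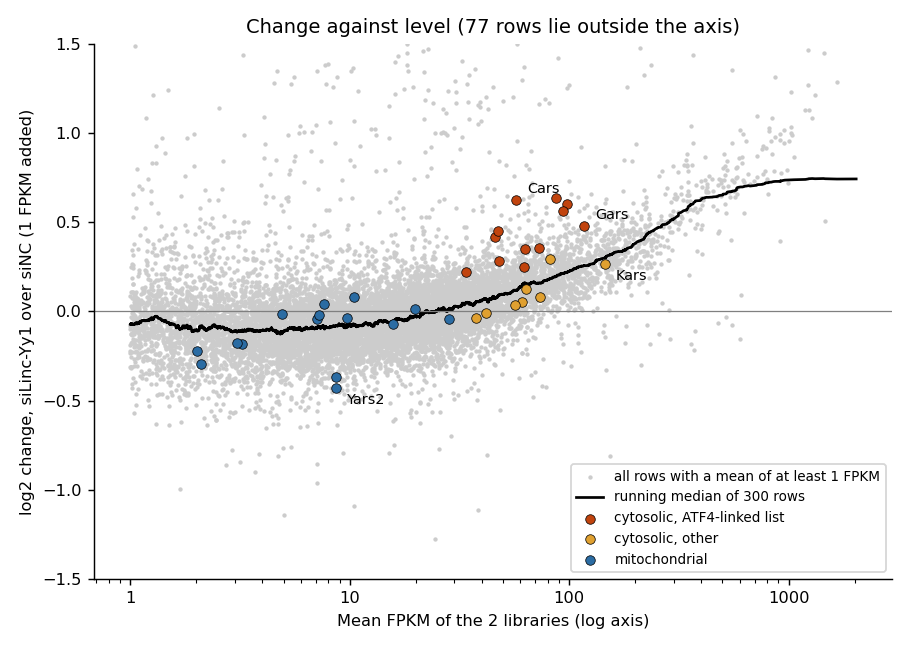
Log2 change against mean FPKM (log axis) at the authors' scaling for all rows with a mean of at least 1 FPKM (grey), their running median (black line) and the synthetases (coloured). All 12 ATF4-linked genes lie above the line and 7 of the other 8 cytosolic genes below it, while the mitochondrial genes scatter around it; 77 rows lie outside the axis. Rescaling to equal sums lowers points and line together.

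ATF4 and its partners of the C/EBP family bind a composite element whose core reads TGATGNAA. RefSeq promoters (GRCm38.p6, 250 bases before to 50 after the start) were in hand for 12 cytosolic and 13 mitochondrial genes. The core, on either strand, was held by promoters of 5 of the 12 cytosolic genes and 0 of the 13 mitochondrial genes. Among all 32851 promoters, each counted singly and not by gene, the share was 3.97%. Aars2 had 2 promoters in hand, and neither held the core. All 5 genes with the core are ATF4-linked, a list of which 7 had a promoter in hand. Of the other cytosolic genes, 0 of 5 promoters held it. The site nearest the start is shown for each of these 5 genes, the only members with a match among the promoters in hand. Capitals mark the match, and each run of 30 bases is written 5′ to 3′ on the strand of the gene. A match is a description of letters and no evidence of binding here. The ATF4-linked list holds known ATF4 targets, and such sites may have helped to make them known. The split of matches is therefore no independent check of that list or of the changes.
Aars, chr8:111033840-111033869, plus strand: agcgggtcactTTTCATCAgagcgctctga
Gars, chr6:55037960-55037989, plus strand: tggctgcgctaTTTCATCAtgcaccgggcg
Iars, chr13:49682126-49682155, plus strand: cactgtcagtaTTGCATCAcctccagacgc
Tars, chr15:11399655-11399684, minus strand: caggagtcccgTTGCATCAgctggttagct
Yars, chr4:129189895-129189924, plus strand: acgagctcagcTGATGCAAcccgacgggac

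In Aars, Gars, Iars and Tars the core lies on the opposite strand, so the printed strand shows its reverse complement, and in Yars it reads forward. Counted from the first transcribed base as 1, the match begins at 10 in Aars, -30 in Gars, 8 in Iars, -15 in Tars and 4 in Yars. The ratios of these 5 genes ran from 1.28 (Aars) to 1.48 (Tars). Sars and Eprs, also ATF4-linked, had no match in the 300 bases searched, and Sars had the highest ratio of all. Cars and Nars were not in the promoter table.

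The mitochondrial genes mostly lay close together in the libraries, and the few that stood apart were lower in siLinc-Yy1. Yars2, the tyrosyl enzyme (chromosome 16, 16303058 to 16309733), measured 10.1 and 7.28 FPKM. Its ratio was 0.718, with a counting interval of 0.628 to 0.818. Cars2, the cysteinyl enzyme (chromosome 8, 11514017 to 11550771), measured 9.88 and 7.42 FPKM. Its ratio was 0.751 (0.659 to 0.857). Mars2 had a ratio of 0.739, but at 159 and 85 fragments per kb its interval reached from 0.564 to 0.972. These 3 were at least 1.2-fold lower, 3 of 15, against 7.81% of all rows and 9.65% of rows in their range of levels; 0 were 1.5-fold lower, against 0.517% of all rows. After rescaling to equal sums 2 were, Yars2 and Cars2, against 4.12% of all rows. None was 1.2-fold or 1.5-fold higher, against 4.26% and 1.69% of rows in their range of levels. Less the running median, Yars2 stood at -0.35, Cars2 at -0.29 and Mars2 at -0.21, so they lay below genes of the same level too.

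Nars2, Pars2 (the prolyl enzyme, 3.50 and 2.97 FPKM) and Wars2 (tryptophanyl, 3.33 and 2.83 FPKM) had ratios of 0.793, 0.846 and 0.848. Their intervals for 1 kb of transcript included 1, with upper ends of 1.049, 1.050 and 1.053. A longer transcript would give narrower intervals, so whether counting error covers these differences was not tested. Rars2, for arginine, measured 16.1 and 15.3 FPKM. Aars2, for alanine, measured 9.86 and 9.58 FPKM, Hars2, for histidine, 7.20 and 6.97 FPKM, and Vars2, for valine, 7.33 and 7.22 FPKM. Ears2, which charges glutamate and, in mitochondria, also tRNA for glutamine, measured 4.97 and 4.91 FPKM. The 3 mitochondrial genes above 0 at the authors' scaling, and below it after rescaling to equal sums, were Fars2 for phenylalanine (10.1 and 10.7 FPKM), Sars2 (7.49 and 7.73 FPKM) and Tars2 (19.84 and 20.02 FPKM). None of the 3 intervals excluded a ratio of 1.

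Pairing the enzymes for the same amino acid gives a comparison that needs no scaling between libraries, because each ratio is taken within 1 library. Of 16 pairs the cytosolic over mitochondrial ratio was higher in siLinc-Yy1 in 14 and lower in 2. The genes of a pair differ in level, and after subtraction of the running median 11 of 16 differences were above 0. The widest gap was for cysteine: Cars stood at 4.55 times Cars2 in siNC and 9.41 times in siLinc-Yy1. For asparagine, Nars stood at 34.4 and 66.2 times Nars2. For tyrosine, Yars stood at 3.95 and 7.56 times Yars2. In the cysteine, tyrosine, asparagine, methionine, isoleucine and alanine pairs the cytosolic gene was higher and the mitochondrial gene lower in siLinc-Yy1, at both scalings. Iars2 and Aars2 were only slightly lower at the authors' scaling, with changes of -0.040 and -0.038. The ratio also differed for serine (9.09 and 13.8) and threonine (3.79 and 5.57). At the authors' scaling Sars2 and Tars2 hardly differed between the libraries, whereas after rescaling to equal sums Sars stood at 0.31 and Sars2 at -0.24, and Tars at 0.24 and Tars2 at -0.29, so which partner differs depends on the scaling. Isoleucine had the most even pair, with Iars at 1.37 times Iars2 in siNC and 1.89 times in siLinc-Yy1. The pairs that went the other way were both for phenylalanine, Farsa (5.91 and 5.77) and Farsb (3.76 and 3.45) over Fars2. Hars over Hars2 was near even, at 7.76 and 8.21; these genes stand head to head, their rows 75 bases apart on chromosome 18.

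**Figure D4:**
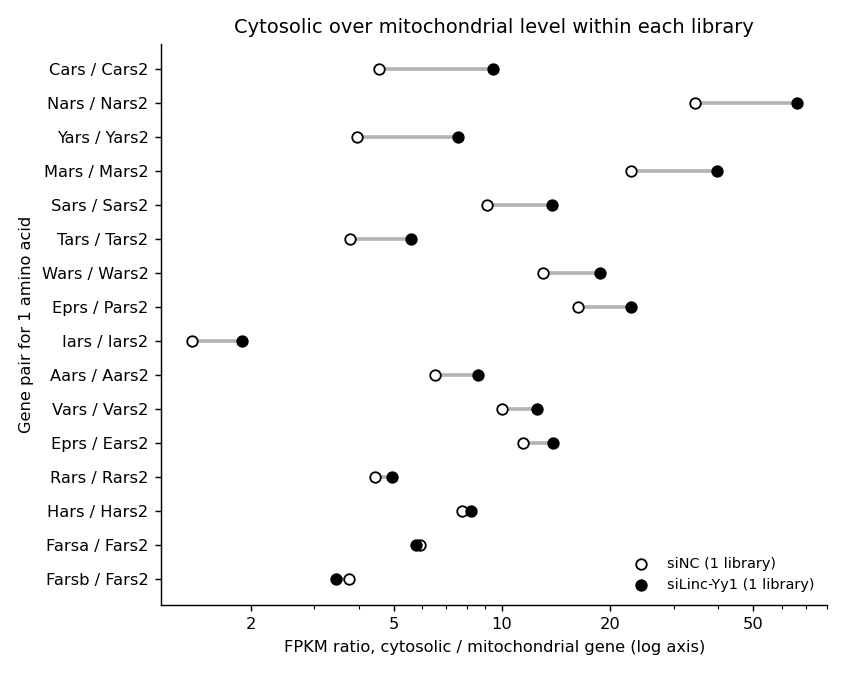
Ratio of the cytosolic to the mitochondrial FPKM (log axis) for the genes that charge the same amino acid, within the siNC library (open) and the siLinc-Yy1 library (filled). In 14 of 16 pairs the filled point lies to the right, most for Cars over Cars2, 4.55 and 9.41; Eprs and Fars2 each enter 2 pairs.

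Synthetases come in class I and class II, by the fold of the catalytic domain. The median change was 0.29 over 9 cytosolic class I genes and 0.31 over 10 class II genes (Eprs, which holds a domain of each, was left out). Class I genes ran from 0.082 to 0.62 and class II genes from -0.034 to 0.63, and less the running median the list medians were 0.19 and 0.080. Of the cytosolic enzymes 8 assemble into the multisynthetase complex (Dars, Eprs, Iars, Kars, Lars, Mars, Qars and Rars). Their median change was 0.23, or 0.031 less the running median. At least 1.5-fold higher were 0 of 8, against 3.28% of all rows and 2.99% of rows in the cytosolic range of levels. At such shares a count of 0 among 8 genes does not set the complex apart. None of Sars, Cars, Nars and Tars belongs to the complex. Its scaffold genes were near even: Aimp1 measured 68.4 and 66.5 FPKM, Aimp2 59.7 and 67.7 FPKM and Eef1e1 36.7 and 38.0 FPKM.

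Other genes of tRNA supply and use are given at the authors' scaling, at which 45.4% of all rows were above 0. Outside the listed members, the row of Lars2, the mitochondrial leucyl enzyme, stood at 143 and 597 FPKM, above every listed gene in both libraries, with a q-value of 0.309 in the authors' deposited table. Whether reads of another transcript were counted in this row cannot be told from the table, so its values are not taken as the level of Lars2 mRNA. Mitochondria make glutaminyl-tRNA by amidation, and of the genes for this, Qrsl1 measured 8.94 and 7.08 FPKM, Pet112l 7.07 and 5.82 FPKM and Gatc 16.8 and 22.5 FPKM. Mtfmt, which formylates the initiator methionyl-tRNA, measured 7.57 and 7.22 FPKM. Among genes that remove wrongly attached or D-amino acids, Aarsd1 measured 34.6 and 30.1 FPKM, Dtd1 6.51 and 6.23 FPKM and Prorsd1 2.40 and 2.58 FPKM.

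Of 30 tRNA modification genes 9 were above 0 and 21 below, with a median of -0.073. None was 1.5-fold changed, against 3.28% of all rows higher and 0.517% lower, so a count of 0 is near those shares. Less the running median 16 were above 0 and 14 below, with a median of 0.011. Trmt112, a partner of several methyltransferases, was highest (87.3 and 120.9 FPKM, a row that shares its locus with another gene), and Trmt11 (3.51 and 2.45 FPKM) and Trdmt1 (5.68 and 4.12 FPKM), tRNA methyltransferase genes, were lowest. Of 11 tRNA maturation and export genes 5 were above 0 (45.5%), with a median of -0.013. Xpot, the tRNA exporter and itself an ATF4 target, measured 20.7 and 23.7 FPKM, Trnt1, which adds the CCA end, 6.57 and 5.29 FPKM, and Ssb, the La protein, 63.1 and 69.8 FPKM. Of 21 genes of RNA polymerase III transcription 9 were above 0 (42.9%), with a median of -0.037; Polr3gl (14.8 and 18.2 FPKM), Gtf3c4 (10.9 and 9.08 FPKM) and the repressor Maf1 (44.5 and 51.1 FPKM) differed most. The 4 genes of the selenocysteine route, which starts from seryl-tRNA, had a median of 0.0091, with changes from -0.060 (Pstk) to 0.054 (Secisbp2) and Eefsec at 0.036. Of 8 measured mitochondrial translation factors 1 was above 0, Tufm (80.4 and 95.8 FPKM), and the median was -0.10. Less the running median 2 were above 0 and 6 below, with a median of -0.032. Tsfm (30.6 and 26.4 FPKM) and Mtrf1l (4.18 and 3.47 FPKM) were lower.

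The genes listed for the response to uncharged tRNA, which centre on ATF4, were mostly higher, like the ATF4-linked synthetases. Charging of tRNA was not measured, and whether uncharged tRNA or another signal lay behind these values was not tested. Of 14 genes 12 were above 0 and 6 at least 1.5-fold higher, against 3.28% of all rows, with a median of 0.48, or 0.46 less the running median. Atf4 itself measured 138 and 249 FPKM, with a q-value of 0.0787 in the authors' deposited table. Its targets Chac1 (16.3 and 70.2 FPKM), Trib3 (6.29 and 28.4 FPKM) and Asns (39.1 and 76.8 FPKM) had ratios of 4.31, 4.51 and 1.96, and the authors' deposited table called these 3 and Sesn2. The ratios of the ATF4-linked synthetases, 1.17 to 1.56, were smaller than those of Chac1, Trib3 and Asns. These 3 genes had the largest changes on the list, so the comparison does not extend to ATF4 targets in general. Atf4, Ddit3 and Sesn2 also had ratios above the synthetase range. Cebpb and Atf3 lay within that range, and Ppp1r15a and Ppp1r15b lay below it. The upstream genes on this list, those around GCN2, were near even. The kinase Eif2ak4 (GCN2) measured 10.1 and 10.5 FPKM and its activator Gcn1l1 23.3 and 23.9 FPKM. The GCN2 inhibitor Impact measured 16.3 and 15.6 FPKM, and the substrate subunit Eif2s1 37.3 and 36.1 FPKM.

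Of the 35 rows 4 share a locus with another gene, so the authors' estimate had to divide reads there. Mars shares its locus on chromosome 10 with Ddit3, which encodes the ATF4 partner CHOP and measured 47.5 and 83.4 FPKM. Aars shares with Exosc6 (13.3 and 10.8 FPKM), Yars with C77080 (28.9 and 30.5 FPKM) and Iars2 with Rab3gap2 (14.1 and 12.9 FPKM). The part of this division in the values of Mars was not tested. Over members with a locus of their own the difference between the compartments was 0.32. Wars lies 68.8 kb beyond the end of lincYy1 on chromosome 12, and its ratio of 1.22 was close to the middle of the cytosolic genes.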

How the data were processed

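The values are FPKM that the authors estimated per gene and library with Cuffdiff, per the file headers. Deposited beside them are a p-value and a q-value for each gene from the authors' test of this pair. The tools named in the submitters' processing notes are Cuffdiff 2.0.4, Cufflinks 2.1.1 and TopHat2 2.0.4, with build mm9. The annotation, strand use and scaling between libraries were not given in the sources used here. The table came in 2 identical copies. The header names siNC before siLinc-Yy1, and the value columns were taken in that order. The members and lists were chosen with earlier results of these data known.

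Python 3.11.15, numpy 2.4.6, pandas 2.3.3 and scipy 1.17.1 were used. Changes were computed with a pseudocount of 1 FPKM and a mean of at least 1 FPKM, and called at a fold of 1.5. The calling step was tested on simulated data with counting error only, larger true folds and a higher minimum level. That test does not bear on differences between cultures or on changes as small as those called here. No p-value was computed, since each group is 1 library. Depth came from receptor genes of 1 exon at 1 fragment (256 and 165 rows). Counting intervals used 1 kb of transcript in place of the planned coding length, as protein sequences were not used here. Named genes were all members, small partner lists whole and the 3 largest changes of the other lists; further genes were chosen after their values were seen. A few such items were left out and are not reported here. Alternatives are given in the closing section.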

Additional observations from a re-analysis of the deposited data

How the results depend on the processing

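Rescaling to equal summed FPKM turned the cytosolic median from 0.29 to -0.030, moved the mitochondrial median to -0.35, the ATF4-linked median to 0.12 and that of the other cytosolic genes to -0.25, and left 0 cytosolic genes at least 1.5-fold higher and 2 mitochondrial genes at least 1.5-fold lower. The share of all rows at least 1.5-fold lower was then 4.12%. The difference between compartments was 0.32. Subtraction of the running median gave 0.18 for the cytosolic genes, 0.19 for the difference between compartments, 0.28 for the ATF4-linked and -0.077 for the other cytosolic genes, with 0 cytosolic genes 1.5-fold higher. The count of 3 became 1 with a pseudocount of 5 FPKM, 0 at a fold of 2 and 12 at a fold of 1.2, where 3 mitochondrial genes were lower. The difference between ATF4-linked and other cytosolic genes, added to the planned results after the data were seen, ran from 0.34 to 0.41 over all alternatives. The pseudocount of 0.1 FPKM, both other filters, centring and the restriction to rows with their own locus changed no direction of a list median and no call. No paired analysis was possible because each group has 1 library. For 1 kb of transcript, the depth of siLinc-Yy1 leaves ratios of mitochondrial genes near 2 FPKM uncertain by about the size of their differences.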
